A study of Homo sapiens with 54 samples.

Results

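The comparison described here asked what insulin did to HT-29 cells given a high concentration of tumour necrosis factor (TNF) for the same time. HT-29 is a human colon adenocarcinoma line of epithelial cells, and every culture had first been sensitized for 24 h with interferon-gamma at 200 U/ml. The treated side was TNF at 100 ng/ml together with insulin at 500 ng/ml, 6 arrays, and the other side was TNF at 100 ng/ml without insulin, also 6 arrays. Neither side held epidermal growth factor (EGF). Each side had 2 biological replicates at 4, 8 and 16 h, and membership was read from the sample titles. These 12 arrays were part of 54 arrays in 27 groups of treatment and time. Other groups of 6 arrays each, at the same times, were set beside them. In 1 of these the cells had insulin alone, again 500 ng/ml, and in another no factor after the interferon, which is called untreated here. A low-dose pair had 5 ng/ml of TNF, once joined by 5 ng/ml of insulin and once not. The last had both TNF and EGF, 100 ng/ml of either. All cells were of 1 tumour line, so nothing here describes normal colon.

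Insulin binds a receptor tyrosine kinase that signals through PI3 kinase, the kinase AKT and the growth complex mTORC1. AKT keeps FOXO transcription factors out of the nucleus, so that genes driven by FOXO fall when insulin is present. mTORC1 raises the translation of ATF4, a transcription factor that also answers amino acid shortage and ER stress and that drives amino acid transporters, enzymes of amino acid synthesis and stress effectors. TNF activates NF-kB and, in cells sensitized by interferon-gamma, can lead to cell death, against which insulin is known as a survival factor.

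Messenger RNA was measured on Affymetrix arrays as MAS5 signal, a linear brightness per probe set. Differences were taken on a log2 scale after adding 12.49 to every signal, which understates the change of dim genes, and ± is the standard error from a limma fit of all 54 arrays. A gene was called when its adjusted p was under 0.05, adjusted by Benjamini and Hochberg over 13422 probe sets, and 8105 genes were tested. The mean difference is that over 4, 8 and 16 h, with 6 arrays a side, and a difference at 1 time rests on 2 arrays a side. RNA came from whole cultures, so a lower amount per cell and fewer cells that hold a transcript cannot be told apart. Of 15 epithelial markers 13 had a median signal over the filter of 138.9 on these arrays, with CDX1 and CDX2 below it. PTPRC, which marks leukocytes, had a median of 21.9 with insulin and 8.82 without, and none of 5 endothelial markers had a median over the filter. COL1A1, DCN and THY1 of 7 fibroblast markers and LYZ and ITGAM of 7 leukocyte markers did. Summed over the markers of a type, arrays ranged from 5595 to 8544 with insulin and 6303 to 8755 without for leukocytes, and from 689 to 1102 with insulin and 698 to 1245 without for fibroblasts. The leukocyte sum was mostly LYZ, with medians of 6412 with insulin and 6381 without, against 235 and 176 for ITGAM. The part of these markers in the results was not tested.

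One array stood apart. Control probes at both ends of ACTB give a ratio, 3′ over 5′, that grows as RNA is degraded. Its log2 was 1.19 in replicate 2 of TNF alone at 8 h, and at most 0.63 in the other 11 arrays. The log2 ratio for GAPDH was 0.48 there and at most 0.08 elsewhere. Its part in the results was not tested other than by leaving it out, so results at 8 h are given with and without it. The replicates correlated between 0.933 and 0.97 across probe sets, the lowest being those of TNF alone at 8 h. Arrays with the same replicate number deviated together at 4, 8 and 16 h, with correlations of 0.402, 0.407 and 0.248, and counts from a fit with the replicate number as a block within each time are given beside the main ones where they differ.

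Insulin raised 20 genes and lowered 4 in TNF-treated cells over the 3 times, 0.247% and 0.0494% of the genes tested and together 0.296%. The largest rises were those of CHAC1, which degrades glutathione, and DDIT4, an inhibitor of mTORC1, at 1.45 ± 0.20 and 1.27 ± 0.14 (adjusted p = 7.66e-05 and 1.25e-06), or 2.73-fold and 2.42-fold. The largest falls were those of NUDT1, which removes oxidised nucleotides, at −0.88 ± 0.18 (adjusted p = 0.0206) and of ARHGDIB, an inhibitor of small GTPase cycling, at −0.81 ± 0.18 (adjusted p = 0.0428). The arrays of both sides did not overlap at all 3 times for 9 of these 24 genes and at 2 times for the other 15. Of all genes 0.679% were apart and above and 0.37% apart and below at all 3 times. The 24 were chosen by these same arrays, so their counts are a description. The difference was largest at 8 h for 15 of them, at 4 h for 4 and at 16 h for 5. With replicates as a block 66 genes were called, 0.814%, among them all 24, and 0.642% were called as higher. Without TNF alone 8 h replicate 2, 14 of the 24 passed. NUDT1, ARHGDIB, SLC1A4 and ODC1 were among those that did not (adjusted p = 0.0976, 0.0768, 0.0893 and 0.0657), so of the 4 lower genes HBP1 alone passed, and without TNF alone 16 h replicate 2 the probe sets called numbered 12, against 34 with all arrays.

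**Figure D1:**
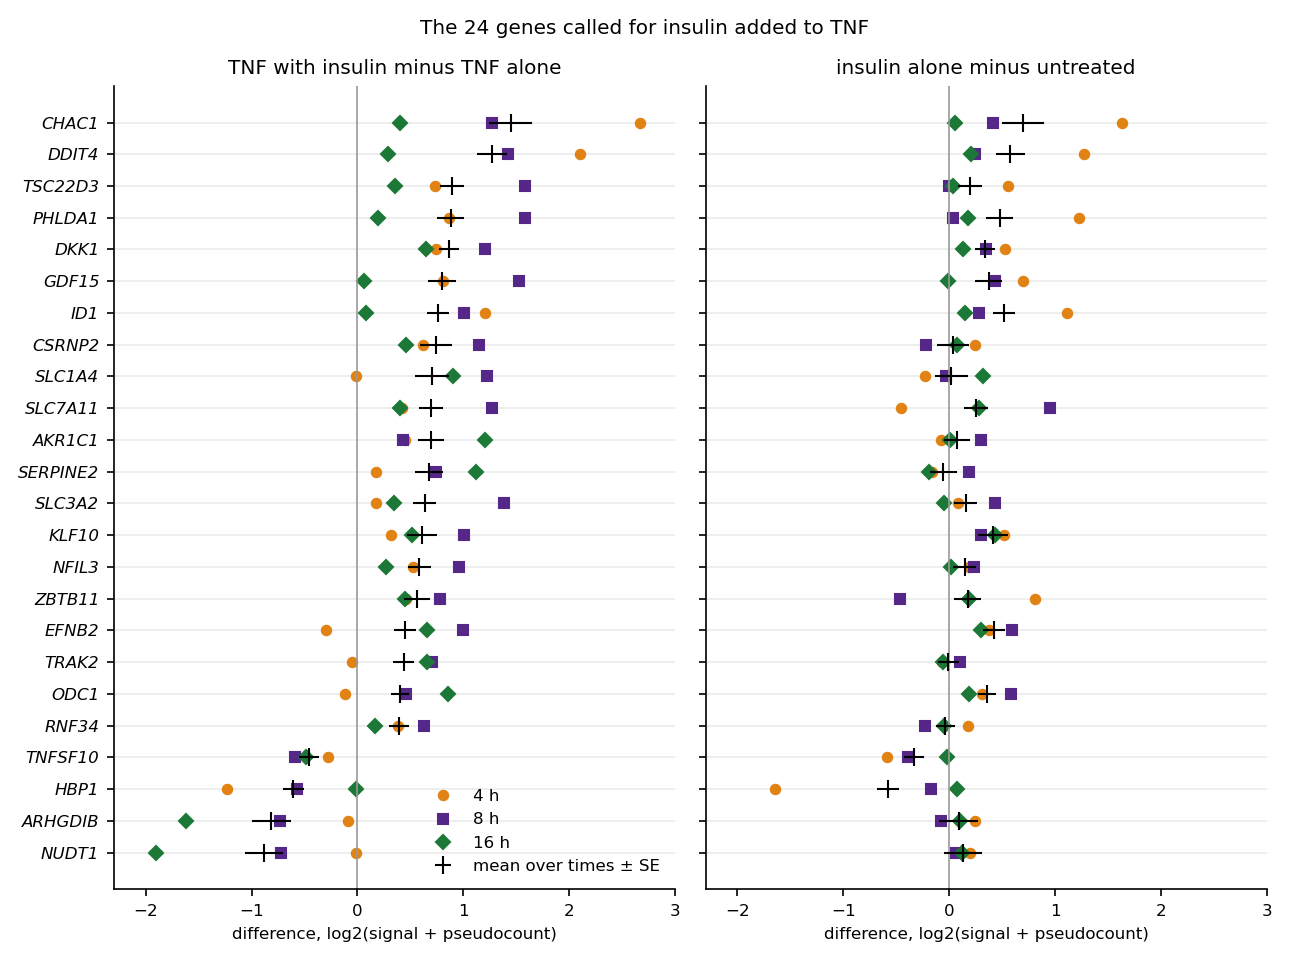
Differences at 4, 8 and 16 h for the 24 genes called over all times, on the log2(signal + 12.49) scale, for TNF with insulin minus TNF alone (left) and insulin alone minus untreated (right); the black ticks with bars are the means over times ± SE. CHAC1, DDIT4, ID1 and HBP1 were furthest from 0 at 4 h, most other rises at 8 h, and NUDT1, ARHGDIB, AKR1C1, SERPINE2 and ODC1 at 16 h.

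Of 18 measured ATF4 stress effectors, genes that ATF4 is known to induce, 3 rose over all times, 15 did not pass and none fell. Of all genes 0.247% rose. The lists and their members were chosen with earlier results of these data known, so list counts here and below are a description. The list's median difference was 0.36, against 0.00 over all genes. Both CHAC1 and DDIT4 were called at 4 h, the first time sampled. CHAC1 read 1501 and 869.5 at 4 h with TNF and insulin, against 126 and 227 with TNF alone, a 6.35-fold difference (adjusted p = 5.14e-05). At 8 h it read 4152 and 2576 with insulin, against 1476 and 1223 without. By 16 h the values were 3530 and 3486 with insulin, against 3074 and 2299 without. The sides did not overlap at any time, and the TNF-alone arrays had also reached a high signal by 16 h.

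DDIT4 had signals of 2347 and 2548 at 4 h with TNF and insulin, against 439.8 and 709.6 with TNF alone (difference 2.10 ± 0.24, adjusted p = 4.58e-06). At 8 h these were 7973 and 9638 with insulin, against 3569 and 2966 without, and at 16 h 8367 and 11280, against 7409 and 8555. The sides were apart at 4 and 8 h and overlapped at 16 h, where the difference was 0.29. GDF15, a secreted stress cytokine, was the third effector called over all times, at 0.80 ± 0.13 (adjusted p = 0.00119). Its 8 h signals were 3770 and 2700 with insulin, against 1265 and 961 without, and its 16 h signals were 3681 and 3549, against 3713 and 3215. The difference at 16 h was thus 0.06.

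At 8 h alone 6 of the 18 effectors rose, DDIT4, GDF15, TRIB3, ATF3, CEBPG and VLDLR, where 0.432% of all genes did, and the list's median was 0.80. Without TNF alone 8 h replicate 2 the median was 0.78 and TRIB3 and GDF15 were still called. With replicates as a block 10 rose and 1 fell at 8 h, against 1.6% and 0.518% of all genes. TRIB3, a pseudokinase that binds AKT, read 7508 and 5216 at 8 h with insulin, against 2993 and 3028 without (1.05 ± 0.16, adjusted p = 0.000288). At 16 h the order had turned without passing the test, with 9339 and 8824 with insulin, against 9843 and 11980 without. ATF3, a stress-induced transcription factor, and CEBPG, a bZIP partner of ATF4, differed by 0.77 and 0.95 at 8 h. CTH, the transsulfuration enzyme, did not pass at 1.56.

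Amino acid transporters moved at the same time. Of 15 measured, 3 rose over all times, where 0.247% of all genes did, 12 did not pass and none fell. The list's median was 0.31. SLC7A11 imports cystine and SLC3A2 is the heavy chain that it shares with other transporters. SLC7A11 had signals of 1271 and 1104 at 4 h, 2395 and 2195 at 8 h and 4400 and 3960 at 16 h with insulin, against 964 and 808, 928 and 958 and 3226 and 3085 without. Its mean difference was 0.70 ± 0.11 (adjusted p = 0.00104), no time overlapped, and a second of its 3 probe sets was also called.

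SLC3A2 read 4122 and 2706 at 8 h with insulin, against 1274 and 1277 without. That difference of 1.38 ± 0.19 (adjusted p = 9.81e-05) was 1.38 without TNF alone 8 h replicate 2 (adjusted p = 0.00629). SLC1A4, a carrier of alanine, serine and cysteine, had a mean difference of 0.70 ± 0.16 (adjusted p = 0.042), and none of its other 3 probe sets was called. At 8 h 6 transporters rose, the 3 above and SLC38A1, SLC7A5 and SLC7A1, which carry glutamine, large neutral and cationic amino acids, at 1.25, 0.97 and 0.71, where 0.432% of all genes rose. Without the array in doubt SLC3A2, SLC7A11 and SLC38A1 remained, and the list's median was 0.83, against 0.95 with it. The blocked fit called 8 of the 15 as higher at 8 h, against 1.6% of all genes.

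Enzymes that make serine, asparagine and one-carbon units showed the rise at 8 h only in part. Of 10 measured none was called over all times by its brightest probe set. At 8 h ASNS, asparagine synthetase, and PSPH, the last enzyme of serine synthesis, rose, where 0.432% of all genes did. ASNS read 7864 and 7510 with insulin, against 3594 and 3939 without (1.03 ± 0.18, adjusted p = 0.00227, and 0.0286 without the array in doubt). Earlier, at 4 h, its signals were 3922 and 3483 with insulin, against 5084 and 4554 without, a difference of −0.38 that did not pass. PSPH read 929.7 and 683 at 8 h with insulin, against 256 and 199 without (1.76 ± 0.30, adjusted p = 0.00158, and 0.0847 without that array). The other probe set of PSPH was called over all times, at 0.79 (adjusted p = 0.0174), and at 8 h, at 1.75 (adjusted p = 0.000436). The list's median at 8 h was 0.50. PSAT1, the enzyme before PSPH, differed by 1.73 at 8 h, and its mean of 0.51 ± 0.27 passed only with replicates as a block (adjusted p = 0.0421, against 0.789). None of 17 aminoacyl-tRNA synthetase genes was called. Their median at 8 h was 0.31, and AARS1 and TARS1, with means of 0.47 and 0.33, passed with the block (adjusted p = 0.00859 and 0.0109).

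**Figure D2:**
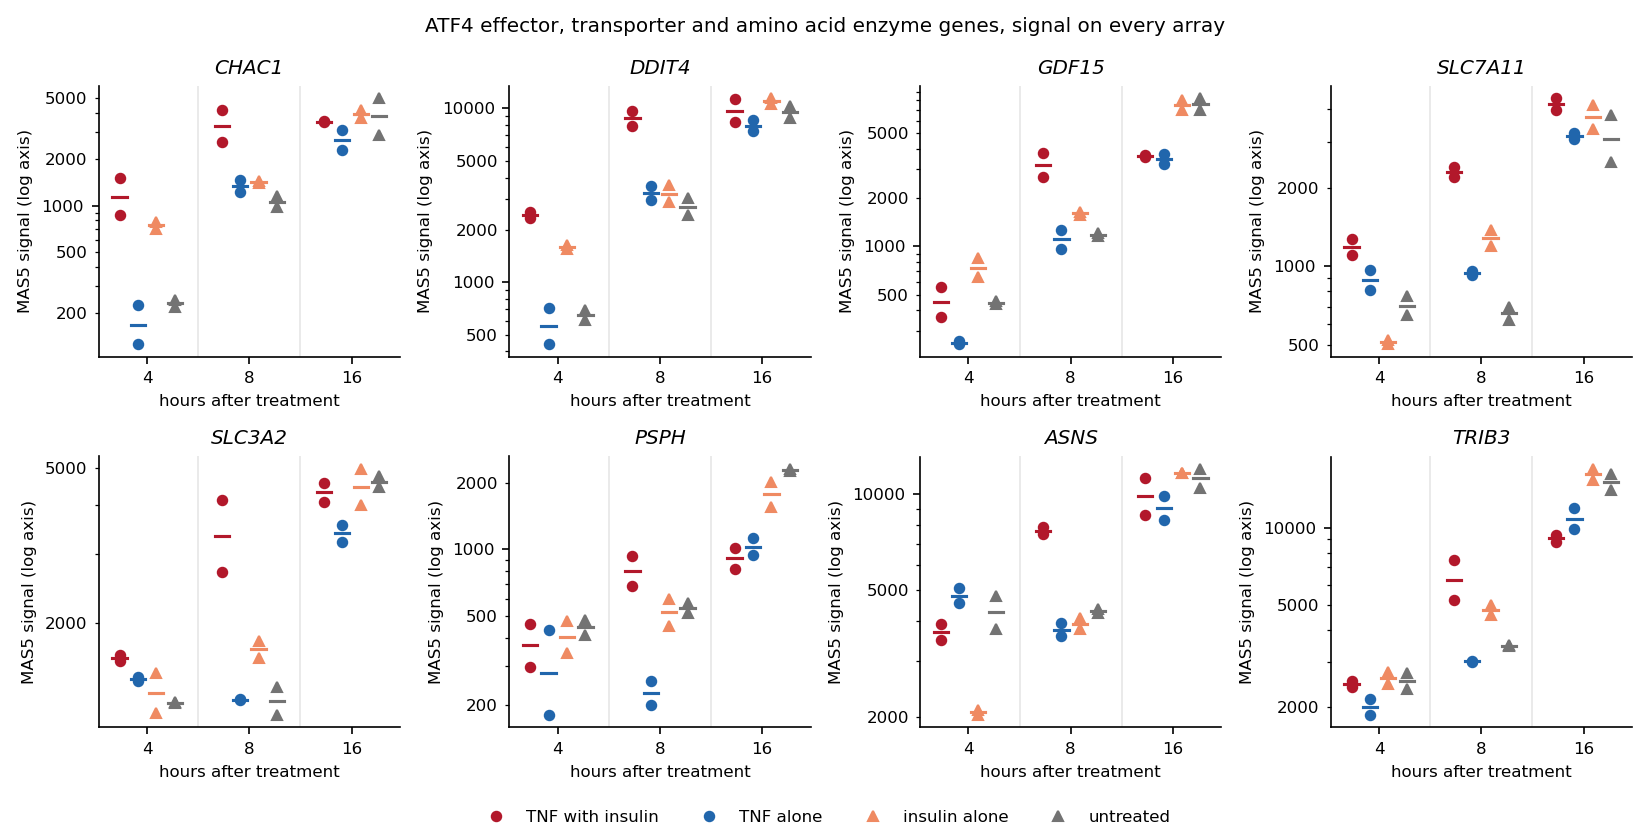
MAS5 signal on a log axis for 8 ATF4 effector, transporter and amino acid enzyme genes on every array of 4 treatments at 4, 8 and 16 h; points are single arrays and short lines geometric means of 2. At 8 h both arrays of TNF with insulin lay above both of TNF alone for all 8 genes, and at 16 h the sides were closer, with TNF alone at 3074 and 2299 for CHAC1.

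The stretches before the start sites of these genes were searched for the C/EBP-ATF response element, the composite site at which ATF4 is known to bind with a C/EBP partner, written TGATGNAA on either strand. Windows of 300 bases, 250 before to 50 after the annotated start, came from RefSeq on GRCh38.p14. Of 13 genes of the 3 amino acid lists that were called by a joint test of the 3 times, 11 had a window and 5 of these held the element, against 1.86% of the windows of 6711 genes tested and 3.67% of all 27305. The 13 genes were chosen by their response, so the share is a description. The windows of ASNS and CHAC1 are shown because the element in the first is a textbook ATF4 site and the second gene responded most. The element is in capitals, 68 bases before the ASNS start (chr7:97872359-97872658, minus strand) and, on the opposite strand, 209 bases before the CHAC1 start (chr15:40953221-40953520, plus strand).
ASNS: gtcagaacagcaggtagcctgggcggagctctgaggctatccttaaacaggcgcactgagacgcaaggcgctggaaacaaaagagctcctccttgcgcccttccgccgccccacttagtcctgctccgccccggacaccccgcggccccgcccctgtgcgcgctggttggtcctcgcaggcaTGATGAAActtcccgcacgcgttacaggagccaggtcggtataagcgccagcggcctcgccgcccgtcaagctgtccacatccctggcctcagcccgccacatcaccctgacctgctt
CHAC1: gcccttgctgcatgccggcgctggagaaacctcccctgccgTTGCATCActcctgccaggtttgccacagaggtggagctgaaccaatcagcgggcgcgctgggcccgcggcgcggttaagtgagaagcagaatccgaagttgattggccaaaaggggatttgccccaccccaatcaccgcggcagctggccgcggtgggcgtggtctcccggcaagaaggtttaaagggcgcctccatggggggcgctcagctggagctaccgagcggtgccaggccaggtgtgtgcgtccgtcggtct
ATF3, SLC38A1 and SLC3A2 also held it, at 191 and 4 bases before and 37 bases after the start.

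Of the genes known to be held down by insulin 1 passed the test, and it fell early. HBP1, an HMG-box repressor of cell cycle genes that FOXO factors induce, read 298 and 279.6 at 4 h with TNF and insulin, against 689.7 and 701 with TNF alone (−1.23 ± 0.18, adjusted p = 0.000228). At 8 h it read 491 and 639 with insulin, against 828 and 852 without, and at 16 h 913 and 887, against 969 and 846. The sides were apart at 4 and 8 h and overlapped at 16 h, and the mean was −0.61 ± 0.10 (adjusted p = 0.00147). Its promoter window (chr7:107168753-107169052, plus strand) is shown for the FOXO site, written GTAAACA on either strand and in capitals, which 2.38% of the windows of tested genes hold. Of 22 windows of genes called over all times 2 held a FOXO site, those of HBP1, which fell, and GDF15, which rose. The HBP1 site began 173 bases before the start.
HBP1: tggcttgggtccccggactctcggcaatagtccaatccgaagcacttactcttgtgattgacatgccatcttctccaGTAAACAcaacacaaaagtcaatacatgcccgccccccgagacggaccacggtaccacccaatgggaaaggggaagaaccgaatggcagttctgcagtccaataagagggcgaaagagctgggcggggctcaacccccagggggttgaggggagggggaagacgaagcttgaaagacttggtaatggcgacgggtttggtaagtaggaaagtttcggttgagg

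Of 24 measured FOXO targets and insulin-repressed genes, HBP1 alone was lower over all times, where 0.0494% of all genes were. At 4 h the arrays with insulin lay below those without for 10 of the 24, against 12% of all genes. IRS2, an adaptor of the insulin receptor, and KLHL24 had 4 h differences of −1.07 and −0.72 and did not pass. Over all times 11 of the 24 had a positive mean. At 8 h 7 were apart and above and 6 apart and below, against 16.9% and 16.3% of all genes. At 16 h these were 7 and 4, against 19.6% and 17.8%. The member called higher was called at 8 h. GADD45A, a growth arrest gene, read 1045 and 583 at 8 h with insulin, against 174 and 191 without (2.03 ± 0.36, adjusted p = 0.00234, and 0.0357 without the array in doubt).

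Outside that list KLF11, YPEL5 and PLAUR also fell at 4 h, and no other gene did. KLF11, a zinc-finger transcription factor, had signals of 4.24 and 12.3 with insulin, against 92.6 and 56.4 without, both low, and a difference of −2.06 ± 0.33 (adjusted p = 0.0011). By 8 h it read 118 and 184 with insulin, against 143 and 168 without, so the sides overlapped. YPEL5, a conserved zinc-binding protein, read 170.4 and 211 with insulin, against 391 and 345 without (−0.91 ± 0.17, adjusted p = 0.0129). At 16 h YPEL5 was on the other side, with 1373 and 1127 with insulin, against 974 and 697 without. PLAUR, the urokinase receptor, read 1309 and 1421 at 4 h with insulin, against 3004 and 2562 without (−1.02 ± 0.16, adjusted p = 0.0011), and the arrays with insulin lay below untreated cells too, at 1788 and 1456. In all 7 genes were called at 4 h, 0.0864% of those tested, 3 higher (CHAC1, DDIT4 and ID1, 0.037%) and 4 lower (0.0494%). With the block 14 were called, 0.173%. Without TNF alone 4 h replicate 1 only CHAC1, DDIT4 and HBP1 remained.

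**Figure D3:**
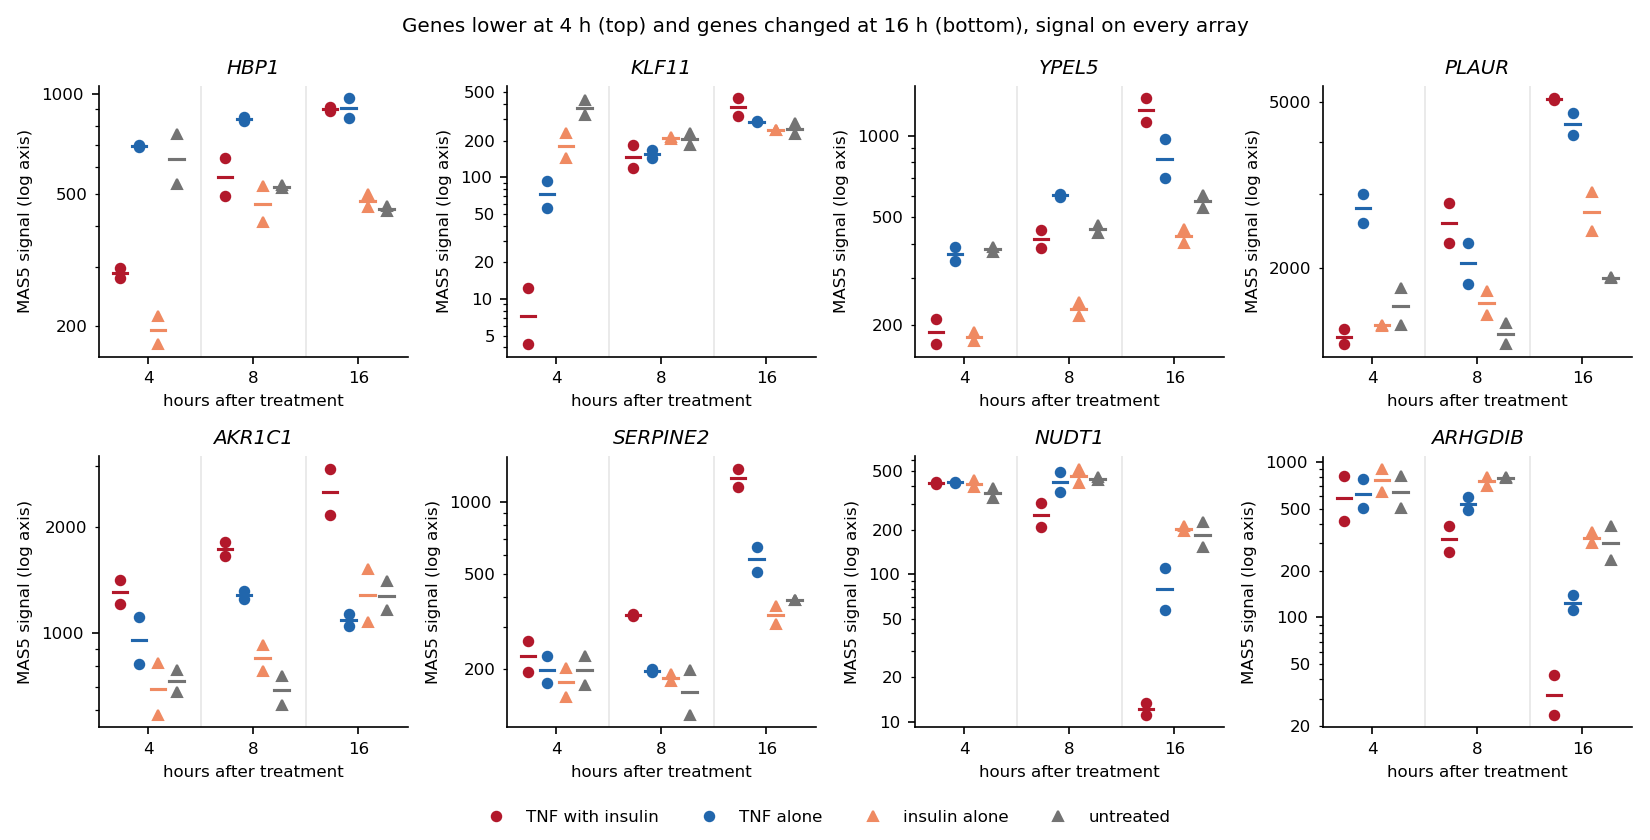
MAS5 signal on a log axis for 4 genes lower at 4 h (HBP1, KLF11, YPEL5, PLAUR) and 4 genes changed at 16 h (AKR1C1, SERPINE2, NUDT1, ARHGDIB) on every array of 4 treatments; points are single arrays and short lines geometric means of 2. The 4 h gap of HBP1 closed by 16 h, and NUDT1 at 16 h lay at 13.5 and 11.2 with insulin, against 57.1 and 111 without.

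A minority of the early growth factor response genes rose, most of them at 8 h. Of 31 measured immediate early and ERK-responsive genes 2 rose over all times, where 0.247% of all genes did, and 29 did not pass. PHLDA1, a pleckstrin homology-like protein, read 3115 and 2483 at 8 h with insulin, against 1029 and 819.6 without, and at 4 h 724 and 814, against 376 and 457. Its mean was 0.88 ± 0.13 (adjusted p = 0.000143), and 2 of its 5 probe sets were called. KLF10, a repressor induced by TGF-beta, had 0.61 ± 0.14 (adjusted p = 0.0487, and 0.171 without the array in doubt). At 8 h 6 members rose, PHLDA1, ATF3, HBEGF, FOSL1, IER3 and DUSP1, and PHLDA1 and IER3 remained without that array. Of all genes 0.432% were called higher at 8 h. The list's median was 0.47 at 8 h, with 21 of 31 members apart and above, against 16.9% of all genes. At 4 h the median was −0.16, and PLAUR was called lower. Of the 31, 6 were then apart and above and 9 apart and below, against 13.9% and 12% of all genes.

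HBEGF, a ligand of the EGF receptor, read 1871 and 1154 at 8 h with insulin, against 355 and 379.6 without (1.97 ± 0.41, adjusted p = 0.0166, and 0.155 without the array in doubt). FOSL1, an AP-1 subunit, and DUSP1, a MAP kinase phosphatase, differed by 0.89 and 1.10. EGR1, FOS and DUSP6 did not pass, with means of 0.54, 0.56 and 0.09.

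Among Wnt, BMP and TGF-beta genes DKK1 and ID1 rose over all times, where 0.247% of all genes did, and 12 of 14 measured did not pass. DKK1, a secreted inhibitor of Wnt signalling, had signals of 350 and 478 at 4 h, 676 and 528 at 8 h and 1893 and 2212 at 16 h with insulin, against 229 and 249.7, 252 and 252 and 1293 and 1318 without. No time overlapped and the mean was 0.86 ± 0.10 (adjusted p = 1.25e-06). Both sides stayed below untreated cells, which read 636 and 702, 988 and 1091 and 3400 and 3275.

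ID1, a BMP target that blocks bHLH transcription factors, read 3440 and 2906 at 4 h with insulin, against 1211 and 1544 without (1.20 ± 0.18, adjusted p = 0.000414), and 9209 and 8647 at 8 h, against 5087 and 3853. At 16 h its sides overlapped. ID2 did not pass, at −0.42 ± 0.14.

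Other genes that rose over all times belong to none of the lists. TSC22D3, the glucocorticoid-induced leucine zipper, had signals of 1425 and 964 at 8 h with insulin, against 395 and 373 without, and the sides did not overlap at any time (0.89 ± 0.11, adjusted p = 2.1e-05). Its other probe set differed by −0.12 and was not called. CSRNP2, a nuclear protein, rose by 0.74 ± 0.15 (adjusted p = 0.0206) and NFIL3, a bZIP repressor, by 0.59 ± 0.11 (adjusted p = 0.0051). ZBTB11, a zinc-finger protein, EFNB2, an ephrin ligand, TRAK2, which couples mitochondria to motor proteins, and RNF34, a ubiquitin ligase, had means of 0.56, 0.45, 0.44 and 0.39. Their adjusted p lay between 0.042 and 0.0493, and none of the 4 passed without the array in doubt.

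At 16 h 12 genes were called, 0.148% of those tested, 8 higher (0.0987%) and 4 lower (0.0494%). AKR1C1, a ketosteroid reductase that also responds to oxidative stress, read 2941 and 2164 with insulin, against 1132 and 1042 without (1.21 ± 0.21, adjusted p = 0.00526). A probe set of its near-identical relative AKR1C2 was called over all times as well, at 0.70 (adjusted p = 0.0283), and array probes can cross-react between them, so the member that changed is uncertain. SERPINE2, a secreted inhibitor of serine proteases, read 1376 and 1160 with insulin, against 650 and 508 without (1.12 ± 0.23, adjusted p = 0.0166). ODC1 makes the first polyamine, and its signal was 4657 and 4323 with insulin, against 2466 and 2496 without. At 4 h the order was the other way without passing the test, with 5198 and 5405 with insulin, against 5813 and 5653 without. CDC25B, a phosphatase that activates cyclin-dependent kinases, and ABLIM1, an actin-binding protein, rose by 0.99 ± 0.17 and 0.97 ± 0.14 at 16 h. SMC4 of condensin, CDCA8 of the chromosomal passenger complex and the kinase RIOK3 were higher by 0.69, 0.80 and 0.74.

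Of the 4 genes that fell at 16 h, 3 were dim there. NUDT1 read 13.5 and 11.2 with insulin, against 57.1 and 111 without (−1.91 ± 0.32, adjusted p = 0.00351), while at 4 h it read 423 and 412, against 426 and 417. ARHGDIB read 42.5 and 23.7 with insulin, against 139 and 112 without (−1.62 ± 0.32, adjusted p = 0.0166). VIL1, the microvillus protein villin and 1 of the epithelial markers, read 64.3 and 26, against 113 and 178 (−1.51 ± 0.31, adjusted p = 0.0242). NLE1, a ribosome assembly factor, fell by 0.97 ± 0.17. The sides did not overlap at 16 h for any of these 4, and the signals with insulin of NUDT1, ARHGDIB and VIL1 lay below the filter of 138.9. None of the 12 genes passed without TNF alone 16 h replicate 2, whose ACTB ratio of 0.25 was not unusual, and all 12 kept their sign. These 12 were chosen by the same arrays, so the kept sign is a description. With the block 82 genes were called at 16 h, 1.01%. Of 22 probe sets called at 16 h 17 were higher and 5 lower, and after median centring, which moved the median difference of all genes at 16 h to 0.11, the split was 11 and 1.

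In the G2/M list, which holds neither SMC4 nor CDCA8, the median turned with time and 1 gene passed at a single time. Of 40 measured G2/M genes, 21 had both arrays with insulin below both without at 8 h and 21 had both above at 16 h, against 16.3% and 19.6% of all genes. The list's medians were −0.06 at 4 h, −0.25 at 8 h and 0.23 at 16 h, while those of all genes were 0.02, 0.00 and −0.01. CDC25B at 16 h was the only member called at a single time. Median centring gave 0.34 at 16 h, against 0.11 for all genes. Of 42 G1/S and replication genes none was called. The medians were −0.03 at 4 h, −0.21 at 8 h and −0.04 at 16 h. At 8 h 2 were apart and above and 14 apart and below, against 16.9% and 16.3% of all genes. At 16 h 3 were apart and above and 9 apart and below, against 19.6% and 17.8%. CENPA, CENPE and MAD2L1 had means of 0.39, 0.35 and −0.19, and TYMS and CDC25A −0.44 and 0.56.

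In the inflammatory and interferon lists a single gene passed over all times. Of 18 NF-kB subunits and feedback genes none was called, with a median of 0.00 and a range from −0.18 to 0.39. TNFAIP3, a deubiquitinase that restrains NF-kB, differed by −0.02 ± 0.13 and NFKBIA, the inhibitor IkB-alpha, by −0.09 ± 0.11. Of 25 chemokines and cytokines 1 fell, where 0.0494% of all genes did, and 24 did not pass. CXCL8, a neutrophil chemoattractant, differed by −0.22 ± 0.19, CXCL10 by −0.10 ± 0.15 and CCL5 by −0.64 ± 0.18. CCL5 did not pass although its sides were apart at all 3 times. None of 38 interferon-gamma targets or of 42 type I interferon-stimulated genes was called, with medians of −0.01 and −0.07. At 4 h 16 of the 42 type I genes were apart and below, against 12% of all genes.

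The member that fell was TNFSF10, the death ligand TRAIL. It read 8572 and 7072 at 4 h, 6443 and 7567 at 8 h and 8646 and 9018 at 16 h with insulin, against 10140 and 8836, 8927 and 12460 and 11320 and 13520 without. No time overlapped (−0.45 ± 0.10, adjusted p = 0.0212, and 0.171 without the array in doubt). Its other 2 probe sets, at −0.50 and −0.17, were not called. Of 25 death receptors, adaptors and caspases and 14 BCL2 family genes none was called. FAS differed by −0.41 ± 0.14 (adjusted p = 0.33, and 0.0409 with the block), CASP8 by 0.11 ± 0.11 and CFLAR, which restrains caspase 8, by −0.12 ± 0.07.

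Metabolic genes that insulin governs in liver and fat were not called either. The lists of insulin signalling components, sterol synthesis, fatty acid synthesis and glycolysis had 28, 22, 18 and 18 measured members, 0 of them called, and medians of 0.02, −0.06, 0.06 and −0.04. SREBF1, the master regulator of lipid synthesis, differed by 0.20 ± 0.25, FASN by 0.19 ± 0.18, HMGCS1 by −0.29 ± 0.18, INSIG1 by −0.25 ± 0.21 and IRS1 by 0.07 ± 0.16. Another of the 3 probe sets of INSIG1, which holds back sterol synthesis, was called lower at 8 h, at −1.18 (adjusted p = 0.0477). MID1IP1, an activator of acetyl-CoA carboxylase, had 0.60 ± 0.15 and passed with the block (adjusted p = 0.00199, against 0.0922). At 4 h sterol genes had a median of 0.16, with 8 of 22 apart and above and 2 apart and below. Of all genes 13.9% and 12% were so. At 16 h their median was −0.38, with 2 apart and above and 10 apart and below, against 19.6% and 17.8% of all genes. The block called 3 lower at 16 h, against 0.469% of all genes. Ribosome biogenesis genes (28 measured), ER chaperones (20), autophagy and lysosome genes (21), nucleotide synthesis genes (23), growth arrest genes (14) and intestinal transcription factors (14) had 0 called members over all times, with medians between −0.06 and 0.05. MYC, CCND1, TXNIP and RGS2 did not pass, with means of 0.26, 0.18, 0.32 and 0.31.

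**Figure D4:**
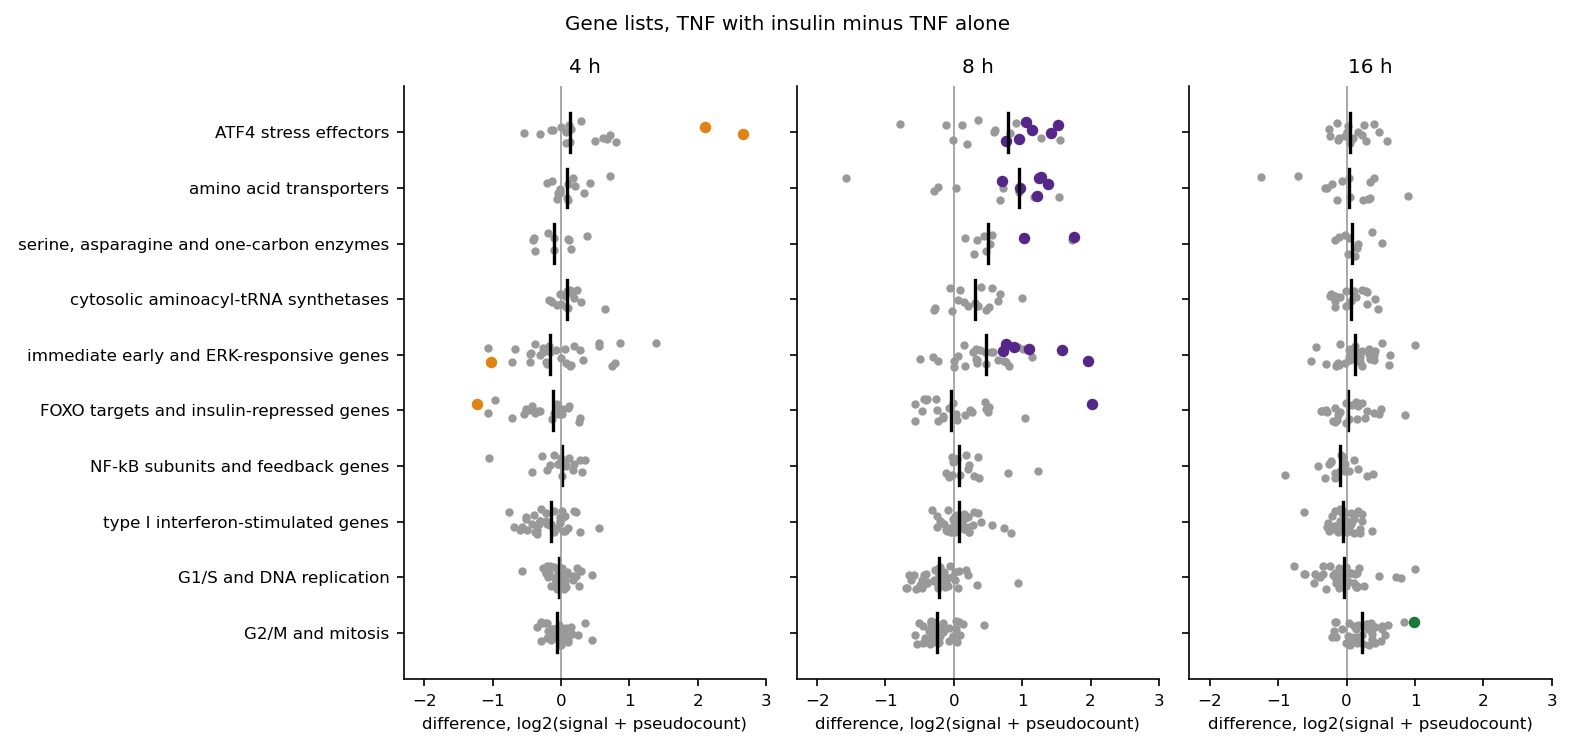
Differences of TNF with insulin minus TNF alone on the log2(signal + 12.49) scale for the measured members of 10 gene lists at 4, 8 and 16 h; points are genes, coloured where called at that time and grey otherwise, and black lines are medians. The ATF4 effector and transporter medians were 0.80 and 0.95 at 8 h, whereas those of the NF-kB and type I interferon lists were 0.07 at that time.

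With all arrays the most genes were called at 8 h. By overlap 16 h came first, with 19.6% of all genes apart and above and 17.8% apart and below. At 8 h these shares were 16.9% and 16.3%. The array in doubt lies at 8 h. Of the genes tested 36 were called at 8 h, 0.444%, 35 higher and 1 lower. Without that array 13 were called, all higher, and 12 of the 36 were among them. All 36 kept their sign, and their median size was 1.21 with and 1.15 without the array. Of the 36, 35 were higher in replicate 1 and 35 in replicate 2. The 36 were chosen by these same arrays, so that agreement is a description. With the block the count was 172, 2.12%. The 12 that passed both ways were TSC22D3, SLC3A2, DKK1, PHLDA1, GDF15, SLC7A11, TRIB3, ASNS, GADD45A, SLC38A1, EFNB2 and IER3. STEAP1, of a metalloreductase family, read 1078 and 819.7 with insulin, against 355 and 224 without (1.69 ± 0.25, adjusted p = 0.000264, and 0.05 without the array in doubt, where it just missed). LSM14B, an RNA-binding protein, read 155 and 188, against 39.3 and 10.9, and GOLGA8N of the multicopy golgin family, the 1 gene lower, 40.5 and 22.5, against 154 and 216. Both were dim, their adjusted p of 0.0432 and 0.0486 became 0.705 and 0.507 without that array, and probes for GOLGA8N may also read its copies. At 16 h both were apart in the opposite direction.

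**Figure D5:**
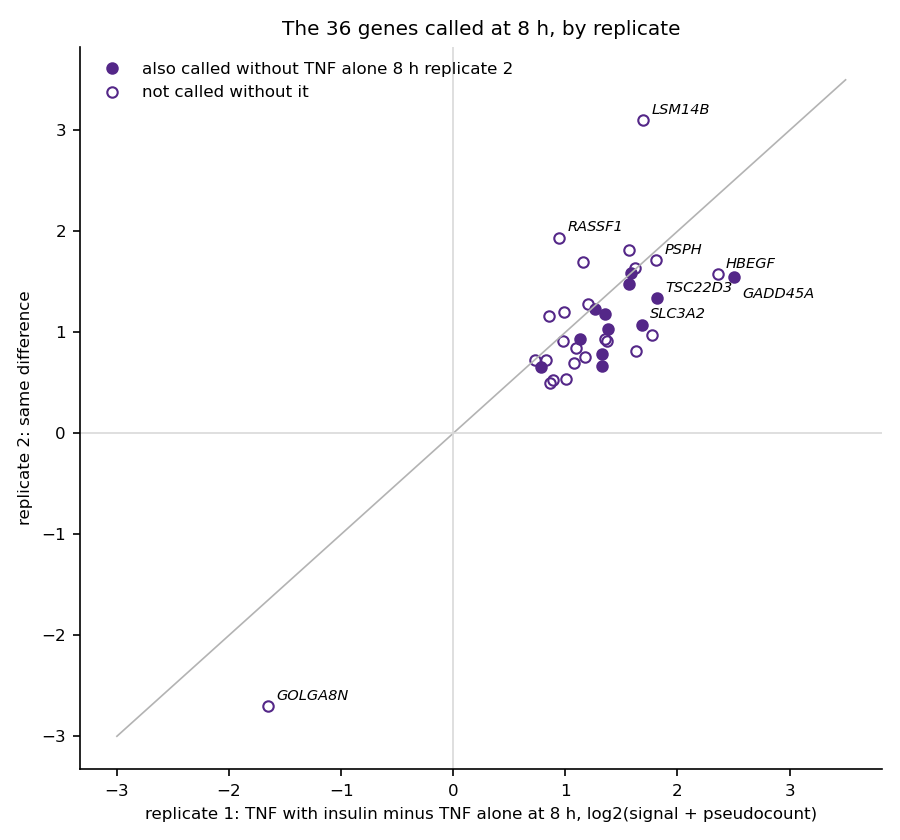
Difference of TNF with insulin minus TNF alone at 8 h in replicate 1 (horizontal) and in replicate 2 (vertical), on the log2(signal + 12.49) scale, for the 36 genes called at 8 h; filled points were also called without TNF alone 8 h replicate 2, and the diagonal marks equal differences. All but GOLGA8N lie above 0 in both replicates, and 12 points are filled. The 36 genes were chosen by these same arrays.

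A test over all 3 times asked which genes responded at any of them, and another which responses changed with time. The first called 50 genes, 0.617%, and 226 with the block, 2.79%. The second called 13 genes, 0.16%, or 16 probe sets against 209 with the block. No probe set passed it without TNF alone 4 h replicate 1 or after median centring. DDIT4 differed by 1.82 less at 16 h than at 4 h (adjusted p = 0.0297). KLF11, PLAUR and YPEL5 moved upward between 4 h and later times, by 2.45, 1.34 and 1.5. BACH1, a repressor of heme oxygenase and other stress genes, differed by −1.02 at 4 h and 1.24 at 8 h, with 8 h signals of 3057 and 2028 with insulin, against 1320 and 826 without. For CHAC1, HBP1 and NUDT1 the change with time did not pass (adjusted p = 0.0945, 0.0769 and 0.144).

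Insulin alone against untreated cells used 12 other arrays and so measured insulin without TNF independently. There 35 genes were called, 0.432%, 12 higher and 23 lower. Replicate 2 of insulin alone at 8 h had an ACTB ratio of 0.98, and without it 25 probe sets were called, against 44 with it and 229 with the block. The probe sets split into 15 higher and 29 lower, or 1 and 4 after median centring. Of the 24 genes called with TNF, 19 had the same sign without it, against 53.1% of all genes, and 3 were called there, ID1, HBP1 and ODC1. The median size of the difference over the 24 was 0.70 with TNF and 0.23 without, but the genes were chosen by their difference with TNF. Over all genes the median sizes were 0.108 with TNF and 0.114 without.

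At 4 h CHAC1 read 786 and 707 with insulin alone, against 219.7 and 245 in untreated cells, and DDIT4 1630 and 1563, against 697 and 609. HBP1 read 215 and 176 with insulin alone, against 535 and 755. Without TNF the arrays with insulin were thus also apart for these 3 genes at 4 h, in the same direction. At 8 h SLC3A2 read 1800 and 1630 with insulin alone, against 1371 and 1166, ASNS 3776 and 4093, against 4227 and 4350, and GDF15 1621 and 1570, against 1210 and 1151. For SLC3A2 and GDF15 insulin alone lay above untreated cells and for ASNS below. At 16 h NUDT1 and ARHGDIB differed by 0.13 and 0.11 with insulin alone. None of these 5 genes passed the interaction test over all times in the fit without the block.

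Whether insulin acted differently with and without TNF was tested as an interaction, and 1 gene passed, 0.0123% of those tested, while 797 probe sets had an unadjusted p under 0.05 and 64 were called with the block. HLA-DPB1, an MHC class II chain, was lower with insulin alone, at −0.52 ± 0.09 (adjusted p = 0.00304), and stood at 0.36 ± 0.09 with TNF, which did not pass. The interaction was 0.88 ± 0.13 (adjusted p = 0.00128). At 16 h it read 2750 and 2473 with TNF and insulin, against 1907 and 1794 with TNF alone, and 972 and 1075 with insulin alone, against 1240 and 1554 in untreated cells. CIITA, the transactivator of class II genes, was also lower with insulin alone, at −0.63, and its interaction of 0.69 did not pass. Other class II genes had interactions of 0.70 for HLA-DQB1 and 0.31 for HLA-DRA and did not pass. None of the 24 genes passed without the block. The interaction of CHAC1, 0.75, ran from 0.17 to 1.33 (95% interval, unadjusted), and that of TSC22D3, 0.69, from 0.36 to 1.02 (adjusted p = 0.62 and 0.177).

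Of the 23 genes lowered by insulin alone 18 also had a negative value with TNF, and of the 12 raised 11 had a positive one. The median of the lower ones was −0.15 with TNF and −0.54 without, and that of the higher ones 0.28 with TNF and 0.53 without. These genes were chosen by their difference without TNF, so the sizes are a description. DEPP1, a gene that FOXO factors induce, read 321 and 412 at 4 h with TNF and insulin, against 701 and 515 with TNF alone, and 25 and 20.5 with insulin alone, against 279 and 243 in untreated cells. Its difference over all times was −0.58 ± 0.18 with TNF (adjusted p = 0.259) and −1.44 without (adjusted p = 2.02e-05). ASS1, which makes argininosuccinate, differed by −0.05 with TNF and by −0.81 without (interaction adjusted p = 0.0667).

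At low dose, with TNF and insulin both at 5 ng/ml, adding insulin left no gene called, and 332 probe sets had an unadjusted p under 0.05. The dose of both factors differed, so the values are only set side by side. CHAC1 differed by 0.12 at low dose and 1.45 at high dose, DDIT4 by 0.19 and 1.27, and HBP1 by 0.08 and −0.61. The median size over the 24 genes was 0.088 at low dose, and 15 of 24 had the sign of the high dose, where 49.3% of all genes did.

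TNF with insulin was also set against TNF with EGF, the other growth factor added to the same dose of TNF. There 107 genes were called, 1.32%, 72 of them higher with insulin and 35 lower, and of the 24 genes that insulin changed 15 differed, 10 higher with insulin and 5 lower. The 24 were chosen with the same TNF-with-insulin arrays, so that count is a description. The probe sets split into 98 higher and 54 lower, or 25 and 21 after median centring, and the block called 429 in place of 152. TSC22D3 was higher with insulin by 1.00 ± 0.11 (adjusted p = 2.32e-06), ASNS by 0.81 ± 0.10 (adjusted p = 1.34e-05) and SLC7A11 by 0.61. DKK1 was lower with insulin than with EGF, by 0.87 (adjusted p = 2.22e-06), and ARHGDIB by 1.08. PHLDA1 and ID1 did not pass, at −0.09 (95% interval −0.35 to 0.17) and 0.09 (−0.12 to 0.30).

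What TNF itself did to these genes can only be placed beside the insulin values, because both comparisons share the arrays of TNF alone. DKK1 differed by 0.86 for insulin added to TNF and by −1.59 for TNF against untreated cells. The same pair of values was 0.89 and −0.77 for TSC22D3, 0.80 and −0.67 for GDF15, −0.61 and 0.59 for HBP1, and −0.45 and 1.91 for TNFSF10. Other genes had both values on the same side of 0, with −0.81 and −0.59 for ARHGDIB, −0.88 and −0.31 for NUDT1, 0.70 and 0.35 for AKR1C1, 0.70 and 0.29 for SLC7A11, 0.68 and 0.28 for SERPINE2, and 0.88 and 0.24 for PHLDA1. CHAC1 and DDIT4 had 1.45 and 1.27 for insulin beside −0.20 and −0.07 for TNF.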

How the data were processed

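RNA from HT-29 cultures was hybridized to Affymetrix human genome arrays. The deposited values are linear intensities, MAS5 signals per the submitters' processing notes, and each array's mean after trimming 2% at both ends was 500.2, so the authors' scaling was kept. Of 22283 probe sets 68 controls were removed. Signals were taken as log2 after adding 12.49, their 10th percentile, and 13422 probe sets whose mean reached the median log2 value of 7.24 in at least 1 group were tested. By the platform annotation 19065 probe sets had 1 symbol, 1043 had several and 2107 had no symbol. A gene was described by its brightest kept probe set with a single symbol. Some genes fixed for naming are not reported here.

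The limma package (3.58.1, R 4.3.3) was fitted to all 54 arrays with a mean per group, 27 residual degrees of freedom and an intensity trend. Moderated tests of the mean over times, of each time and of any time were adjusted by Benjamini and Hochberg. Blocking used the replicate number within each time, since same-numbered arrays of both sides correlated above 0.1 at all times. Named were the 12 largest rises and falls over all times, 5 each at single times, 5 interactions, 4 members per list and fixed genes, and genes outside this rule, such as CIITA, DEPP1, ASS1, BACH1 and list members called only at 8 h, were named after their values were seen. Members, the 25 lists and tests were chosen with earlier results of these data known. Alternatives were other pseudocounts, filters, scalings, blocks, no trend, only the arrays compared, each array left out and, added later, both 8 h replicate 2 arrays or all 8 h arrays left out. The number of arrays limits the precision.

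In simulated data with the noise of these 13422 probe sets, changes at all times of log2 0.5, 1 and 2 were recovered in 38.8%, 80.6% and 98.5% of cases by the mean over times, with 8 of 153 calls false, and changes at 8 h in 4.48%, 43.3% and 89.4% by the 8 h test. The simulated noise was independent between arrays.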

Additional observations from a re-analysis of the deposited data

Results flagged for a closer look

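The response to insulin in TNF-treated cells differed between times for 13 genes by the limma test of that difference. As the change of the log2 difference against 4 h, it was 2.45 for KLF11, 1.5 for YPEL5 and 1.06 for ABLIM1 at 16 h. ABLIM1, an actin-binding protein, read 1567 and 1203 at 16 h with insulin, against 762 and 631 without. The condensin subunit SMC4 moved by 1.01 and the ER co-chaperone DNAJB9 by 1.18 by 16 h, and DDIT4 by −1.82. At 8 h the change was 2.26 for BACH1, 1.81 for STEAP1, 1.77 for DUSP1, 1.41 for ASNS, 1.34 for PLAUR, 1.29 for EFNB2 and 0.75 for TRIB3. Without TNF alone 8 h replicate 2 the test passed for KLF11, YPEL5, PLAUR and ABLIM1, and for the other 9 the adjusted p lay between 0.0574 (DDIT4) and 0.309 (STEAP1). Without TNF alone 4 h replicate 1 no probe set passed. After median centring none of the 13 passed.

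For HLA-DPB1 the insulin difference with TNF minus that without TNF was 0.88, the only interaction that passed. It passed without any 1 of the 24 arrays, with an adjusted p of at most 0.00748, and was lost after median centring (adjusted p = 0.129).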

How the results depend on the processing

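Of the 24 genes called over all times, CHAC1, DDIT4, DKK1, ID1, PHLDA1, SLC7A11 and TSC22D3 passed under every alternative apart from those added later, and AKR1C1, GDF15, HBP1 and SLC3A2 also passed without any 1 array. With 4 and 16 h alone 6 of the 24 passed. PHLDA1, SLC7A11 and TSC22D3 did not, at 0.53, 0.41 and 0.55 (adjusted p = 0.47, 0.732 and 0.226). Neither did GDF15 and SLC3A2, at 0.44 and 0.26. The cause of the changes below was not tested. In probe sets, median centring gave 17 calls over all times, against 34 with the deposited scaling, 22 at any time (67), 23 at 8 h (50), 12 at 16 h (22), 0 for the change with time (16), 5 for insulin alone (44), 0 for the interaction (1) and 46 against EGF (152). The block within times gave 99, 378, 17 at 4 h (8), 275, 136, 209, 229, 64 and 429, and the replicate block over all times 126 at any time, 102 at 8 h, 36 at 16 h, 41 for the change with time, 101 for insulin alone, 5 for the interaction and 238 against EGF. Fitting only the arrays compared, which leaves fewer arrays to estimate the spread, gave 9 over all times, 2 at any time, 0 at 4, 8 and 16 h, for the change with time and for insulin alone, 2 for the interaction and 28 against EGF. The filter at the 75th percentile gave 27 for the change with time, 69 for insulin alone and 6 for the interaction. No filter gave 27 for insulin alone, quantile normalization 69 for insulin alone and 4 for the interaction, and no trend 6 for the change with time. Quantile normalization split the change with time into 10 higher and 3 lower, against 14 and 2. The 4 h calls split into 3 and 5, or 3 and 3 after median centring. Both 8 h replicate 2 arrays left out gave 19 at 8 h, and 4 and 16 h alone gave 7 for the mean and 27 at any time. Leaving out 1 array gave 12 to 39 calls over all times, 29 to 112 at any time, 3 to 21 at 4 h, 17 to 154 at 8 h, 0 to 30 at 16 h, 0 to 71 for the change with time, 20 to 76 for insulin alone, 1 to 5 for the interaction, 0 to 1 at low dose and 62 to 186 against EGF. The lowest counts came without TNF alone 16 h replicate 2 (mean, any time and 16 h), 8 h replicate 2 (8 h) and 4 h replicate 1 (4 h and change with time), and 154 at 8 h came without 8 h replicate 1. Over 110 gene results, 664 of 2363 comparisons lost the call and 0 reversed.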
